A study of Mus musculus with 2 samples.

Results

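The genes read out by the sort of this study, together with the leukocyte integrin chains, were followed across 2 single-cell libraries of mouse bone marrow culture. They are 8 genes, taken by symbol from the 47729 features counted in both libraries: Itgam, which encodes CD11b, Ly6c1 and Ly6c2, which encode Ly6C, their relative Ly6g, and the integrin genes Itgax, Itgb2, Itgal and Itga4. The symbols matched 9 features, because Itgam is carried by 2 identifiers. Femur marrow of C57BL/6NCrljOri mice (H-2b) was grown for 5 days with 40 ng/mL GM-CSF, a growth factor that drives granulocyte and macrophage formation. The library without coculture holds cells sorted as CD11b-high and Ly6C-high from marrow grown alone. The coculture library holds cells sorted as CD11b-mid and Ly6C-mid from marrow grown beside human mesenchymal stem/stromal cells (MSC), 1 MSC to 5 marrow cells, kept behind an insert with 0.4 µm pores. The MSC were preincubated for 24 h. The labels name RPMI1640 for the marrow culture and DMEM for the coculture, and they give neither the age nor the number of mice. Each group has 1 library, so the effects of gate, coculture, medium and library cannot be told apart, and no difference has a replicate check.

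Integrins are paired surface receptors, each made of an alpha and a beta chain, that hold a cell to matrix or to another cell. Itgb2 encodes CD18, the beta chain shared by the leukocyte integrins: it pairs with the products of Itgam (Mac-1, complement receptor of neutrophils and macrophages), Itgax (CD11c, a receptor of dendritic cells and many macrophages) and Itgal (LFA-1, found on most leukocytes), and without it these alpha chains do not reach the surface. Itga4 encodes the alpha chain of VLA-4 and of the gut-homing receptor, pairs with the products of Itgb1 and Itgb7, and is known from lymphocytes, eosinophils and progenitors rather than mature neutrophils. Ly6C and Ly6G are small lipid-anchored surface proteins, and in mouse marrow the pair CD11b and Ly6C or Ly6G is the usual antibody definition of monocytic and granulocytic suppressor cells.

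The Ly6 genes of the set lie in 1 array on chromosome 15 and Itgam lies just before Itgax on chromosome 7. The 250 bases upstream of the RefSeq start are shown (GRCm38.p6, the same build as mm10) for the gene of the CD11b gate and for the 3 Ly6 genes, because the transcripts of Ly6c1 and Ly6c2 are nearly alike while their counts differed widely. Each is written 5' to 3' on the gene's strand, and capitals mark the letters GAGGAA or their reverse complement TTCCTC, the core read by the myeloid factor PU.1.
Itgam: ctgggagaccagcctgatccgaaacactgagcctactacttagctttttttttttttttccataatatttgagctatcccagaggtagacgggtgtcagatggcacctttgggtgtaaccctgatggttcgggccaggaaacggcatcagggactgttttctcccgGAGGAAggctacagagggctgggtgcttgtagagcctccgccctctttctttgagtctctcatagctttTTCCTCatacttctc
Ly6c2: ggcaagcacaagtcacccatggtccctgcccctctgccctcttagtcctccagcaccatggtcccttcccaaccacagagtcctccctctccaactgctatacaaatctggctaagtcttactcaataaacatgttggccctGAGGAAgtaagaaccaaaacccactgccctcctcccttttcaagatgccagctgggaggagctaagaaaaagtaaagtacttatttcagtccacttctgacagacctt
Ly6c1: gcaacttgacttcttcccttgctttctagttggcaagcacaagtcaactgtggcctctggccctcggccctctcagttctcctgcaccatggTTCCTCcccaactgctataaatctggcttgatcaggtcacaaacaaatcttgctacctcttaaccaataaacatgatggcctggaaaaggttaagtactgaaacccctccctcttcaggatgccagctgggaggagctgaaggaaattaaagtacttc
Ly6g: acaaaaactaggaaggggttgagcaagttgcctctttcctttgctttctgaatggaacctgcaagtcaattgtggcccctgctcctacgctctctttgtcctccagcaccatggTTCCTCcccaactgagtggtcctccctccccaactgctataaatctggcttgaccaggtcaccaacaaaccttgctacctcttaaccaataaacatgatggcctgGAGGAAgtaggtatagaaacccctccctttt
The windows are chr7:128062390-128062639 for Itgam, chr15:75111972-75112221 on the reverse strand for Ly6c2, chr15:75048838-75049087 on the reverse strand for Ly6c1 and chr15:75155011-75155260 for Ly6g. RefSeq windows matched 6 of the 8 genes, and Itgb2 and Itgal had none. The core was found in the Itgam window with first bases at -84 and -15 from the start, at -108 in that of Ly6c2, at -158 in that of Ly6c1, and at -136 and -31 in that of Ly6g. It was not found in the windows of Itgax and Itga4. Of 32851 RefSeq windows of this length, 23.3% held it. The Runx core TGTGGT (14.0% of windows, both strands) was found at -179 in Ly6c2 and at -60 in Itga4. Neither searched form of the C/EBP motif, TTGCNNNAA (8.29% of windows) and TTNNGCAAT (1.93%), was found in the 6 windows. A match is a string of letters and not a measured binding site. The Ly6c1 and Ly6c2 windows aligned at 59.0% identity over 290 columns, whereas their transcripts were 95% identical over 844 columns. The same alignment gave 59.1% for the windows of Ly6c1 and Ly6g, 50.3% for Ly6c2 and Ly6g and 48.8% for Itgam and Itgax. Identity over whole windows also depends on where each is cut, and the part of the windows in the gap between the counts was not tested.

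The files hold counts of unique molecular identifiers (UMIs), each standing for 1 captured RNA molecule. After barcodes with fewer than 500 genes or more than 10% mitochondrial UMIs were left out, 1817 cells remained without coculture and 3005 in the coculture, with medians of 7016 and 6031 UMIs per cell and totals of 27784963 and 29089241 UMIs. Levels are a gene's UMIs per 1000000 UMIs of the summed cells (CPM), ranges in parentheses are exact Poisson or binomial 95% intervals, and a gene at 10 CPM or more in either library is called measured. All intervals cover counting error only, and a gene carried by a handful of rich cells varies more than its interval says. A gene is called higher or lower where its CPM differ by at least 2-fold. No test was run. Cells were clustered with all 8 genes left out, and classes were named from marker genes. In the library without coculture 740 cells were neutrophil-like, 570 macrophage-like and 30 granulocyte-monocyte progenitor-like, and in the coculture 438 were neutrophil-like, 910 B lineage-like, 482 eosinophil-like, 415 basophil or mast cell-like and 290 mature dendritic cell-like. Smaller coculture classes were 149 megakaryocyte or platelet-like, 97 T or NK cell-like and 103 progenitor-like cells. Clusters 2 (led by Slfn1, Igf2bp2 and Lst1; 320 cells without coculture), 3 (led by Igha, Ptx3, Asgr2 and C1qa; 91 and 110 cells) and 7 (led by Gdf15 and Slc39a2; 60 cells without coculture) kept their numbers. Classes with fewer than 20 cells in a library are not described there, which leaves 15 sets of cells.

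Over all cells, 5 of the 7 measured genes were lower in the coculture library and none was higher, and of the 5 measured genes outside the gate 3 were lower. Itgam gave 9750 UMIs without coculture and 4190 in the coculture, 351 CPM (344 to 358) and 144 CPM (140 to 148), a log2 ratio of -1.28 (-1.34 to -1.23). Ly6c2 gave 9559 and 2818 UMIs, 344 and 96.9 CPM (log2 ratio -1.83, -1.89 to -1.77). Both are the genes of the sort antibodies, so their lower sums have the direction of the gates and are a description only. Outside the gate, the integrin genes Itgb2 (370 and 145 CPM, log2 ratio -1.35, -1.40 to -1.30), Itgal (99.1 and 47.1 CPM, -1.07, -1.17 to -0.98) and Itgax (87.5 and 8.53 CPM, -3.36, -3.55 to -3.17) were lower too. Itgax had the widest gap of the set, 2432 UMIs against 248, a 10.3-fold difference. Ly6g gave 718 and 470 UMIs (25.8 and 16.2 CPM, -0.68, -0.85 to -0.51) and stayed within 2-fold. Itga4 went the other way, from 442 UMIs (15.9 CPM) to 903 (31.0 CPM), a log2 ratio of 0.96 (0.80 to 1.13) that also stayed just within 2-fold. It passed 2-fold in the mean of per-cell CPM (2.13) and when the richest 5% of cells were left out (1.24), where Itgal also lost its call (-0.99). Ly6c1 was not measured, with 8 and 3 UMIs. Of all 8668 measured genes 11.7% were lower and 12.7% higher (14.6% and 10.5% with TMM scaling, under which the same count of 5 of the set was lower), and the median log2 ratio was 0.03. The median of the 7 was -1.28, which is Itgam's own value and rests in part on the gate genes, and that of the 5 outside the gate was -1.07. Outside the gate means only that no sort antibody reads the product. CD11b needs the Itgb2 product to reach the surface, so Itgb2 is not independent of the sort, and neither are this count and median. With summed libraries, fewer cells of a type and less RNA per cell cannot be told apart, so the levels are next given class by class.

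**Figure D1:**
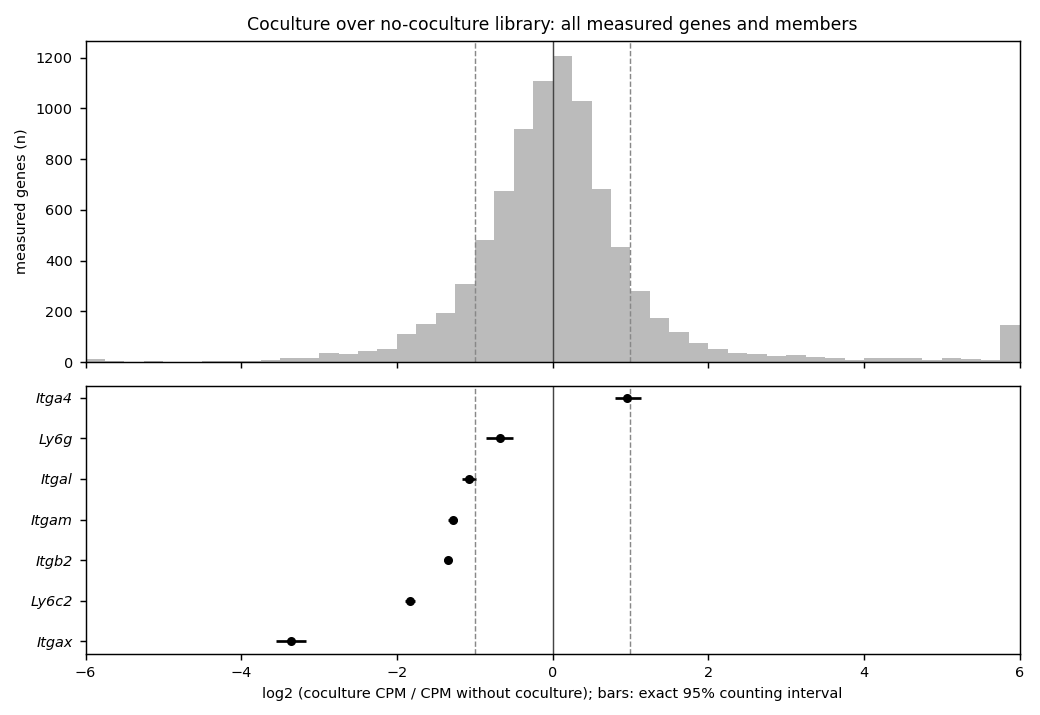
Upper panel, number of measured genes (vertical axis) by log2 ratio of coculture CPM to CPM of the other library (bins of 0.25; genes beyond the axis are in the end bars). Lower panel, the same ratio for the 7 measured genes with the exact 95% counting interval, dashed lines marking 2-fold. Itgax stands lowest at -3.36 and Itga4 highest at 0.96, while most genes lie near 0.

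Itgam (ENSMUSG00000030786, chromosome 7, 128062640 to 128118491, forward strand, protein-coding) had its highest class levels in the coculture library. Its neutrophil-like cells had 504 CPM (484 to 525) and its cells of cluster 3 had 471 CPM, with overlapping intervals. Next came the macrophage-like cells (389 CPM), cluster 2 (360 CPM) and the neutrophil-like cells without coculture (346 CPM), each overlapping its neighbour. Cluster 7 (231 CPM) and the cells of cluster 3 without coculture (212 CPM) formed a lower pair. Basophil or mast cell-like cells had 161 CPM (148 to 175), and progenitor-like cells 109 and 34.0 CPM in the libraries without and with coculture. Eosinophil-like cells had 48.8 CPM and mature dendritic cell-like cells 19.8 CPM. The lowest sets were the T or NK cell-like (1 UMI), megakaryocyte or platelet-like (4.34 CPM) and B lineage-like cells (3.20 CPM, 1.60 to 5.73). A UMI of Itgam was seen in 8 of 910 B lineage-like cells (0.879%), against 85.2% of the neutrophil-like and 54.5% of the basophil or mast cell-like cells of the same library, at median depths of 2869, 7682 and 6502 UMIs. In cells thinned to 2000 UMIs each, these shares were 0.509% of 786, 57.2% of 411 and 24.0% of 404 cells.

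The coculture sum of Itgam rested on few classes: neutrophil-like cells held 54.5% of its 4190 UMIs, cluster 3 18.8%, basophil or mast cell-like cells 13.4% and eosinophil-like cells 9.98%. The B lineage-like cells, 30.3% of the cells labelled CD11b-mid, held 0.263%. Without coculture, macrophage-like cells, the deepest large class at a median of 25274 UMIs, held 71.3% of the 9750 UMIs. The gate read surface protein, which these counts do not measure.

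**Figure D2:**
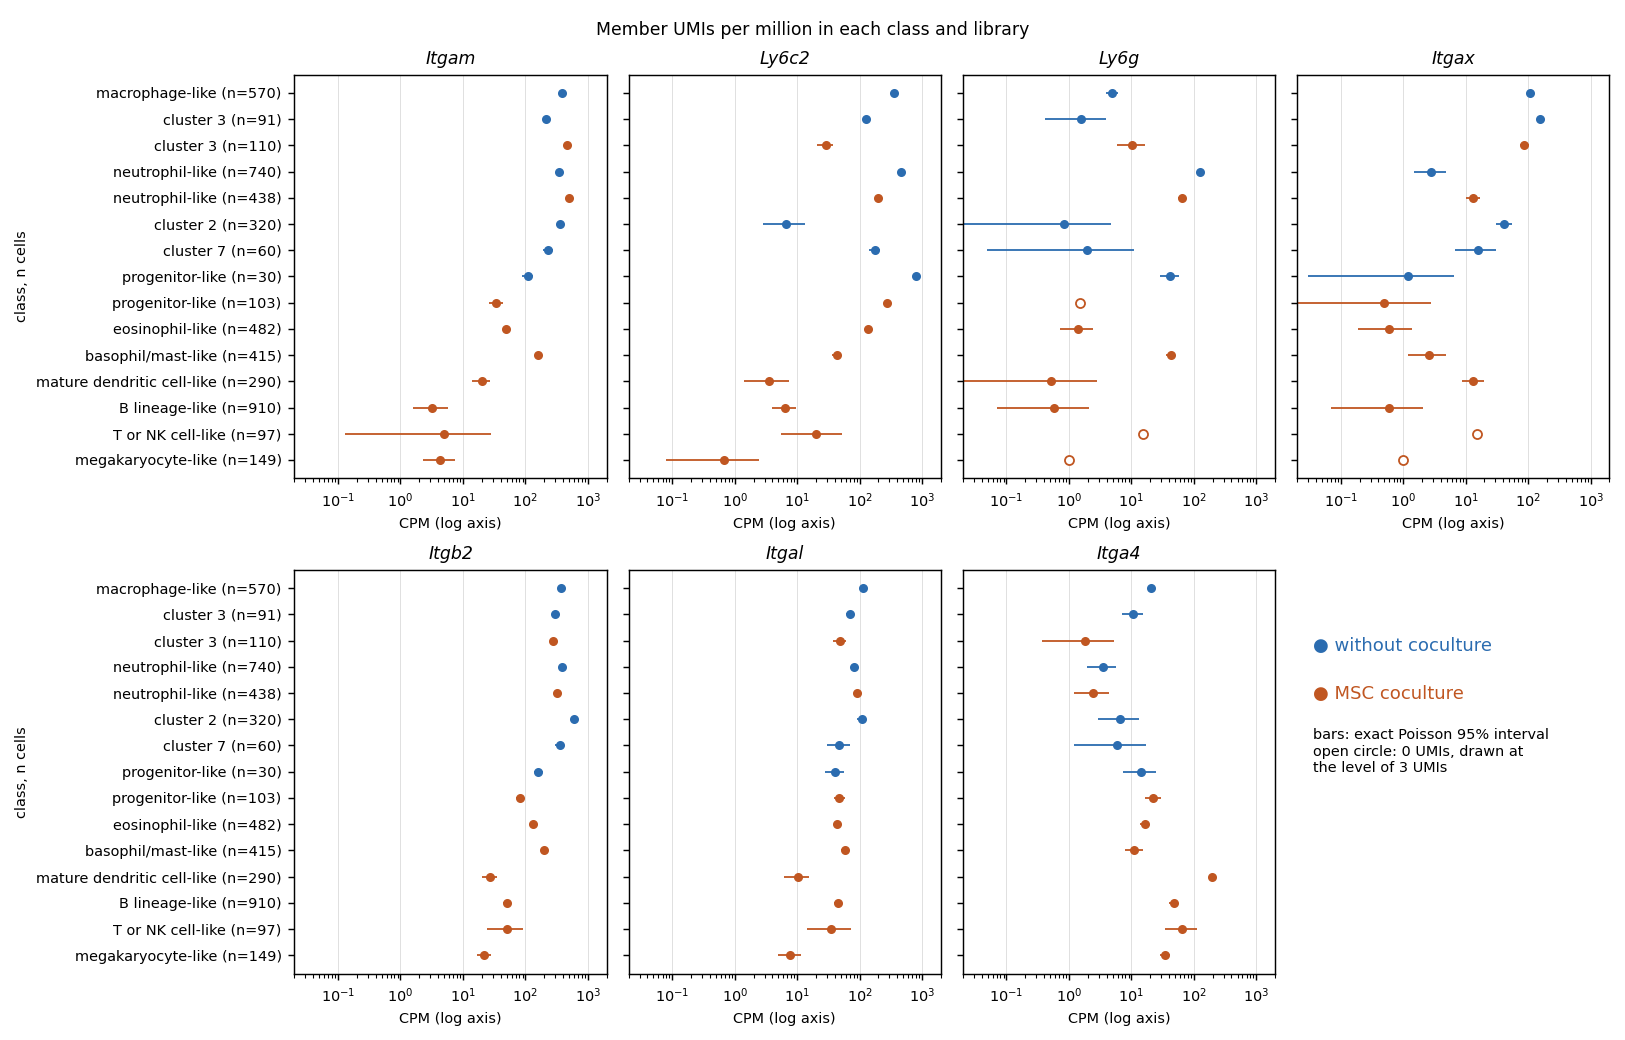
CPM on a log axis (horizontal) in each class (rows, with the number of cells) for the 7 measured genes, blue without coculture and orange in the coculture, with exact Poisson 95% intervals. Open circles mark 0 UMIs and are drawn at the level of 3 UMIs. Itgam and Itgb2 are high in the macrophage-like and neutrophil-like rows and low in the lymphoid, mature dendritic cell-like and megakaryocyte rows, Itgal varies less, Itga4 is highest in mature dendritic cell-like cells, and Ly6c2 is low in cluster 2 (6.68 CPM).

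Ly6c2 (ENSMUSG00000022584, chromosome 15, 75108158 to 75111970, reverse strand, protein-coding) was highest in immature granulocytic cells. The progenitor-like cells without coculture had 789 CPM (730 to 851), and all 30 held a UMI. Their cluster (cluster 5) was led by the granule genes Elane, Prtn3 and Mpo, taken over these 30 and 103 coculture cells. In the 30 cells the progenitor markers summed to 7189 CPM and the neutrophil markers to 133400 CPM, so the name describes the cluster more than these cells. Cluster 4 of the neutrophil-like class, led by the secondary granule genes Ltf, Camp and Ngp, had 1027 CPM (without) and 919 CPM (coculture). The cluster that made up most neutrophil-like cells without coculture (cluster 1, led by Asprv1, with S100a9; 620 cells) had 187 CPM, and the one that made up most in the coculture (cluster 8, led by Arg1 and Cxcl3; 409 cells) had 155 CPM. So Ly6c2 was several-fold higher in the granule-rich cluster than in either of the other neutrophil-like clusters. Macrophage-like cells had 354 CPM (345 to 363), and held 66.2% of the Ly6c2 UMIs of their library. In the coculture the leading holders were eosinophil-like cells, with 134 CPM (126 to 142) and 40.6% of the 2818 UMIs, then the neutrophil-like cells (198 CPM, 31.8%) and the progenitor-like cells (271 CPM, 19.3%). B lineage-like (6.40 CPM) and mature dendritic cell-like cells (3.56 CPM) were near the bottom. A UMI of Ly6c2 was seen in 48.8% of eosinophil-like and 0.549% of B lineage-like cells, at median depths of 18158 and 2869 UMIs, and after thinning to 2000 UMIs in 16.4% and 0.382%.

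Ly6c2 was uneven within classes. In eosinophil-like cells the 10 richest of 482 held 34.4% of the UMIs, and the richest 1 had 143. Among the macrophage-like cells with a UMI, the middle of the range ran from 1.52 to 5.13 UMIs per 10000 (quartiles), against 2.70 to 5.07 for Itgam. The 10 richest cells held 96.6% of the Ly6c2 UMIs of cluster 7 and all 48 of the coculture cells of cluster 3.

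Cluster 2 combined high integrin counts with almost no Ly6c2. It made up 17.6% of the cells of the library labelled Ly6C-high, and its 320 cells gave 8 Ly6c2 UMIs (6.68 CPM, 2.88 to 13.2), a level that overlaps that of B lineage-like cells (4.01 to 9.70). The same cells gave 431 Itgam UMIs (360 CPM) and 711 Itgb2 UMIs (593 CPM). Its leading genes included Csf3r, the G-CSF receptor of neutrophils, and Siglecf, but 2 of 14 neutrophil markers were at least 2-fold higher there than in other cells, so it was not named. Its median depth of 3401 UMIs was below that of the other sets of this library.

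Ly6c1 (ENSMUSG00000079018, chromosome 15, 75044018 to 75048830, reverse strand) was almost silent in these counts. It gave 8 UMIs in 8 cells without coculture and 3 UMIs in 3 cells in the coculture (0.288 and 0.103 CPM, log2 ratio -1.48, -4.03 to 0.58). Over the last 300 bases, the end that this method reads, the Ly6c1 and Ly6c2 transcripts were 93.5% identical with a longest shared run of 124 bases. Reads within shared runs cannot be told apart, and how the authors' counting treated them is not given in the sources used here, so the split between the 2 genes is uncertain.

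Both gate genes in 1 cell were uncommon at equal depth. In cells thinned to 2000 UMIs, a UMI of Itgam was seen in 46.7% of 1677 cells without coculture and 16.9% of 2740 in the coculture, against 81.8% and 33.5% unthinned. A UMI of Ly6c2 was seen in 28.9% and 8.10% (50.2% and 19.0% unthinned). Both were seen together in 13.3% (11.7 to 15.02%) and 2.96% (2.35 to 3.66%), and neither in 37.7% and 78.0%. At this depth a cell that holds the RNA is often missed, so these are shares of cells with a UMI and not of expressing cells. The share with both also depends on the share of each gene alone, and no link between the genes is read from it. The share with both was highest in macrophage-like cells, at 22.0%, followed by neutrophil-like cells at 13.9% without coculture and 12.2% in the coculture, whose intervals overlap. Ly6c2 without Itgam was the commonest of the detected patterns in progenitor-like cells, in 17 of 30 (56.7%) without coculture and 27 of 103 (26.2%) in the coculture. In cluster 2, 45.7% of 302 cells had Itgam without Ly6c2 and 1 cell had both. In the coculture cells of cluster 3, 50.5% of 99 had Itgam without Ly6c2 and 2 had both. Both were seen in none of 786 B lineage-like, 274 mature dendritic cell-like and 148 megakaryocyte or platelet-like cells (upper limits of 0.468%, 1.34% and 2.46%).

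**Figure D3:**
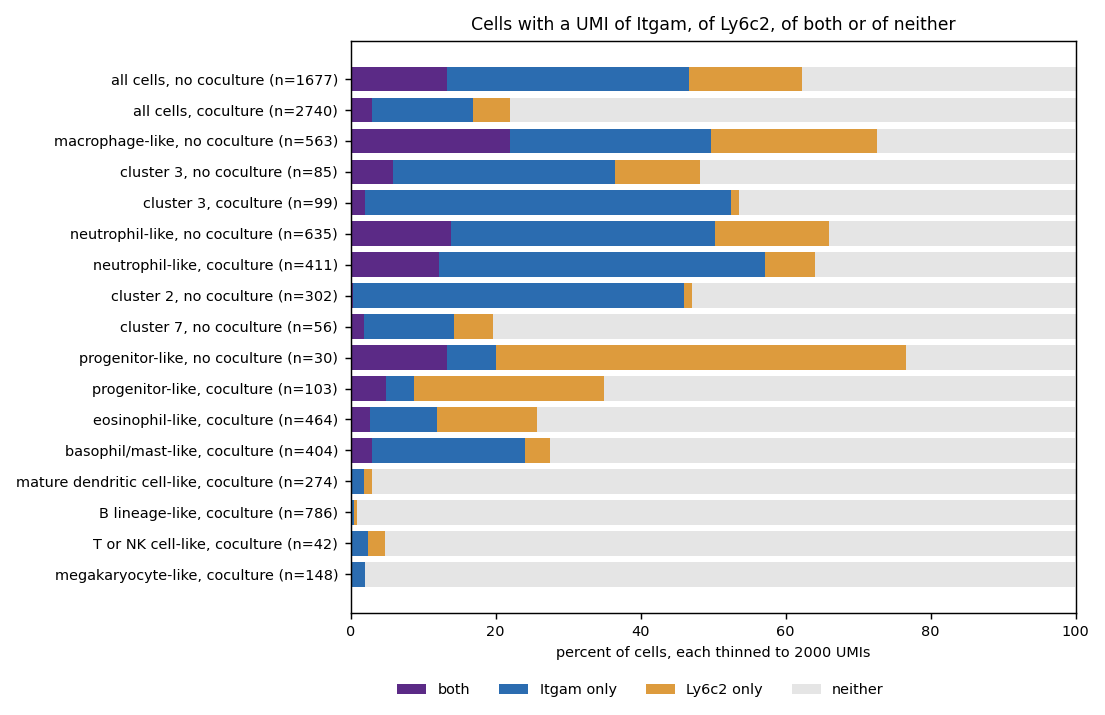
Percent of cells (horizontal axis), each thinned to 2000 UMIs, with a UMI of both Itgam and Ly6c2, of 1 of them or of neither, for all cells and each class (rows, with the number of cells deep enough). The purple segment for both is widest in macrophage-like cells, at 22.0%, and nearly absent from cluster 2, while the lymphoid and megakaryocyte rows are almost all grey.

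Ly6g (ENSMUSG00000022582, chromosome 15, 75155240 to 75159126, forward strand, protein-coding), whose product marks mature and maturing neutrophils, followed the granule-rich neutrophil-like cells. Cells of cluster 4 had 226 CPM (202 to 251) in the library without coculture and 230 CPM (175 to 297) in the other. Cluster 1 had 79.9 CPM and cluster 8 53.8 CPM. The whole neutrophil-like class held 82.0% of the Ly6g UMIs without coculture and 61.5% in the coculture, yet a UMI was seen in only 18.9% and 17.8% of its cells. Progenitor-like cells gave 35 UMIs in 30 cells without coculture (41.5 CPM), 28 of them in 10 cells, and 0 UMIs in 103 cells in the coculture. A floor of 3 UMIs is 1.499 CPM there, and the counting interval of the log2 ratio lies below -4.42. The neutrophil marker genes summed to 133400 CPM in the former and 22720 CPM in the latter, and the part of that difference in the gap was not tested. Macrophage-like cells had 4.92 CPM, and B lineage-like, T or NK cell-like and megakaryocyte or platelet-like cells had 2, 0 and 0 UMIs.

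A further holder of Ly6g was the basophil or mast cell-like class, with 149 UMIs (42.7 CPM, 36.1 to 50.1) or 31.7% of the coculture total. Of these, 141 UMIs came from 8 cells with at least 5 each, and the richest cell had 50. Of the 8 cells, 7 had no UMI of the neutrophil genes S100a8 and S100a9, and the other had 1. Of the same 8, 6 had a UMI of the basophil protease gene Mcpt8, 6 of Prss34 and 7 of Itgam. Protease UMIs varied widely among the 8 cells, also among those with most Ly6g. Those with 50, 22 and 17 Ly6g UMIs had 0, 4 and 0 of Mcpt8 and 1, 0 and 0 of Prss34. Those with 20, 10, 10 and 7 had 44, 63, 131 and 143 of Mcpt8 and 163, 102, 180 and 66 of Prss34. The cell with 5 had 1 of Mcpt8 and 22 of Prss34. The 8 cells were singled out after their values were seen. Over all 15 cells of the class with a Ly6g UMI, the summed neutrophil markers stood at 12750 CPM. In the 400 cells without one they stood at 5214 CPM. Leaving out the 19 cells of the class with at least 1000 CPM of S100a8 and S100a9 left 148 of its 149 Ly6g UMIs. That cutoff was chosen after the data were seen. The part of the neutrophil markers in the Ly6g counts was not tested.

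Itgb2 (ENSMUSG00000000290, chromosome 10, 77530252 to 77565708, forward strand, protein-coding), the shared beta chain, was present in all 15 sets. Cluster 2 stood alone at the top with 593 CPM (550 to 639). Neutrophil-like cells without coculture (388 CPM), macrophage-like cells (373 CPM) and cluster 7 (353 CPM) followed, then the neutrophil-like cells of the coculture (325 CPM), each overlapping its neighbour. Cluster 3 had 297 and 276 CPM, which overlap. Basophil or mast cell-like cells had 197 CPM and eosinophil-like cells 131 CPM. B lineage-like (51.2 CPM) and T or NK cell-like cells (50.5 CPM) were alike within counting error, and mature dendritic cell-like (27.0 CPM) and megakaryocyte or platelet-like cells (21.7 CPM) were lowest. Lymphoid cells, which use LFA-1, held Itgb2 with little Itgam: 146 of 910 B lineage-like cells had an Itgb2 UMI and 8 an Itgam UMI.

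Itgal (ENSMUSG00000030830, chromosome 7, 127296260 to 127335138, forward strand, protein-coding), the alpha chain of LFA-1, was the most even of the alpha chains of the set. Its levels ran from 112 CPM in macrophage-like cells and 109 CPM in cluster 2 through 90.0 and 82.5 CPM in neutrophil-like cells of the coculture and without it. Basophil or mast cell-like cells had 58.7 CPM, B lineage-like cells 45.1 CPM, eosinophil-like cells 44.0 CPM and T or NK cell-like cells 35.3 CPM (7 UMIs). Down to that point no neighbouring pair in the order was separated by its counting intervals. Mature dendritic cell-like (10.2 CPM) and megakaryocyte or platelet-like cells (7.68 CPM) lay below the rest. Within the B lineage-like class, clusters 11, 12 and 14 had 51.7, 68.5 and 31.9 CPM.

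Itgax (ENSMUSG00000030789, chromosome 7, 128129547 to 128150657, forward strand, protein-coding) was held by few classes. The cells of cluster 3 without coculture had 157 CPM (143 to 173), macrophage-like cells 109 CPM (104 to 113) and the coculture cells of cluster 3 86.5 CPM (73.0 to 102), all separated from each other. Cluster 3 carries the dendritic and macrophage genes Ccl17, Mgl2 and C1qa. Cluster 2 had 41.7 CPM, and cluster 7 (15.7 CPM), the neutrophil-like cells of the coculture (13.2 CPM) and the mature dendritic cell-like cells (13.2 CPM) overlapped. CD11c is a textbook protein of dendritic cells, yet 14 of 290 mature dendritic cell-like cells (4.83%) had an Itgax UMI, at a median depth of 6563 UMIs, against 59 of 110 coculture cells of cluster 3 (53.6%) at 14090 UMIs. Neutrophil-like cells without coculture had 13 UMIs in 740 cells (2.81 CPM), eosinophil-like cells 5 UMIs in 482, B lineage-like cells 2 in 910, and T or NK cell-like and megakaryocyte or platelet-like cells 0. Macrophage-like cells, of which the coculture had none (117 when the clustering kept the listed genes), held 79.8% of the Itgax UMIs without coculture, and cluster 3 held 58.5% of those in the coculture.

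Itga4 (ENSMUSG00000027009, chromosome 2, 79255426 to 79333123, forward strand, protein-coding) had a nearly opposite order. Mature dendritic cell-like cells stood alone with 195 CPM (176 to 216), held 42.5% of the 903 coculture UMIs, and 56.9% of them had a UMI. T or NK cell-like cells (65.6 CPM, 13 UMIs) and B lineage-like cells (47.5 CPM) overlapped, and megakaryocyte or platelet-like cells (34.7 CPM), progenitor-like cells of the coculture (22.5 CPM), macrophage-like cells (20.6 CPM) and eosinophil-like cells (16.5 CPM) came next. Within the B lineage-like class, clusters 11, 12 and 14 had 54.0, 64.8 and 36.3 CPM. Neutrophil-like cells were near the bottom in both libraries, at 3.46 and 2.43 CPM, and the coculture cells of cluster 3 had 3 UMIs (1.79 CPM). Macrophage-like cells held 83.3% of the 442 UMIs without coculture.

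Over the 15 sets, Itgam and Itgb2 levels (log2 of CPM + 5) had a Pearson r of 0.93, Itgal and Itgb2 0.88, and Itgax and Itgb2 0.58. Itga4 went against them, with r of -0.84 to Itgb2 and -0.81 to Itgam, and near 0 to its own partner chains (-0.04 to Itgb1, 0.09 to Itgb7). Ly6c2 was only loosely alike to Itgam (0.54) and Itgb2 (0.55). These are descriptions over sets that share libraries and differ in depth. By the same measure over 5776 genes, the genes most alike to Itgam included Apobr (0.945) and Cebpb (0.945), and those most alike to Itgb2 included Myo1f (0.943) and Itgam (0.935). Itgal was most alike to AB124611 (0.904), Itgb2 (0.880) and Ugp2 (0.856), and Itgax to P2ry6 (0.940), Pald1 (0.922) and Stard3nl (0.914). Ly6c2 was most alike to I830127L07Rik (0.881), Gm1673 (0.868) and Mgst2 (0.849), of which I830127L07Rik lies 19406 bases from it on the same strand of chromosome 15. Ly6g was most alike to BC100530 (0.896), Stfa2l1 (0.866) and Stfa2 (0.865), and Itga4 to Prpf38b (0.903), Atr (0.891) and Atrx (0.886).

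Cells of both libraries stood together in 3 clusters. Itgam was higher in the coculture cells of clusters 3 and 4 and lower in those of cluster 5. In cluster 3 it went from 553 UMIs (212 CPM) in 91 cells without coculture to 789 UMIs (471 CPM) in 110 coculture cells, a log2 ratio of 1.15 (0.99 to 1.31), higher by the 2-fold rule like 12.1% of the 8145 genes measured there. In cluster 4 it went from 271 to 397 CPM (0.55, 0.22 to 0.87), and in the progenitor-like cluster 5 from 109 to 34.0 CPM (-1.68, -2.16 to -1.22). In cluster 5 7.42% of 7492 measured genes were lower and 16.6% higher, and in cluster 4 15.1% and 14.4% of 6716. The cells of clusters 3 and 5 differed in their markers between the libraries. In cluster 5 the progenitor markers summed to 7189 CPM without and 24020 CPM with coculture, and the neutrophil markers to 133400 and 22720 CPM. In cluster 3 the monocyte markers summed to 1266 and 3047 CPM, the macrophage markers to 3467 and 5699 CPM, the plasma cell markers to 351 and 3398 CPM and the megakaryocyte or platelet markers to 22.6 and 2090 CPM. The part of these sums in the differences of Itgam and of the genes that follow was not tested.

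Ly6c2 was lower in cluster 3, from 324 to 48 UMIs (124 to 28.6 CPM, log2 ratio -2.12, -2.59 to -1.68), where 9.24% of genes were lower. Of the 324, 204 were in 10 cells. It was also lower in cluster 5 (789 to 271 CPM, -1.54, -1.71 to -1.37), and in the granule-rich cluster 4 it was alike (1027 and 919 CPM, -0.16, -0.36 to 0.04). Ly6g was alike in cluster 4 too (0.03, -0.40 to 0.43), and went from 4 to 17 UMIs in cluster 3, all 17 of them in 6 cells. The shared chain Itgb2 hardly differed in cluster 3 (297 and 276 CPM, -0.11, -0.28 to 0.06) and cluster 4 (0.13, -0.23 to 0.48), and was lower without reaching 2-fold in cluster 5 (161 and 82.4 CPM, -0.97, -1.30 to -0.63). Itgal stayed within 2-fold in all 3, with log2 ratios of -0.57, 0.29 and 0.24. Itgax in cluster 3 went from 157 to 86.5 CPM (-0.86, -1.15 to -0.59) and Itga4 from 28 to 3 UMIs (-2.59, -4.95 to -0.89).

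The neutrophil-like class as a whole is 83.8% cluster 1 without coculture and 93.4% cluster 8 in the coculture, so its values compare different clusters. In it Itgam went from 346 to 504 CPM (log2 ratio 0.54, 0.45 to 0.64), Ly6c2 from 464 to 198 CPM (-1.23, -1.34 to -1.12), Ly6g from 128 to 63.8 CPM (-1.0, -1.21 to -0.79, a fold of 1.999 and so just short of the call) and Itgax from 13 to 60 UMIs (2.23, 1.35 to 3.22). The direction of Itgax turned at clustering resolution 0.4, where the level in this class was 56.3 CPM without coculture, above the 33.0 CPM of the coculture. Itgb2 (-0.25) and Itgal (0.13) were close. Of 7475 genes measured in this class 6.03% were lower and 13.1% higher. Summed neutrophil markers stood at 195100 and 72590 CPM, and monocyte markers at 257 and 2505 CPM, without and with coculture. Their part in these gaps was not tested.

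**Figure D4:**
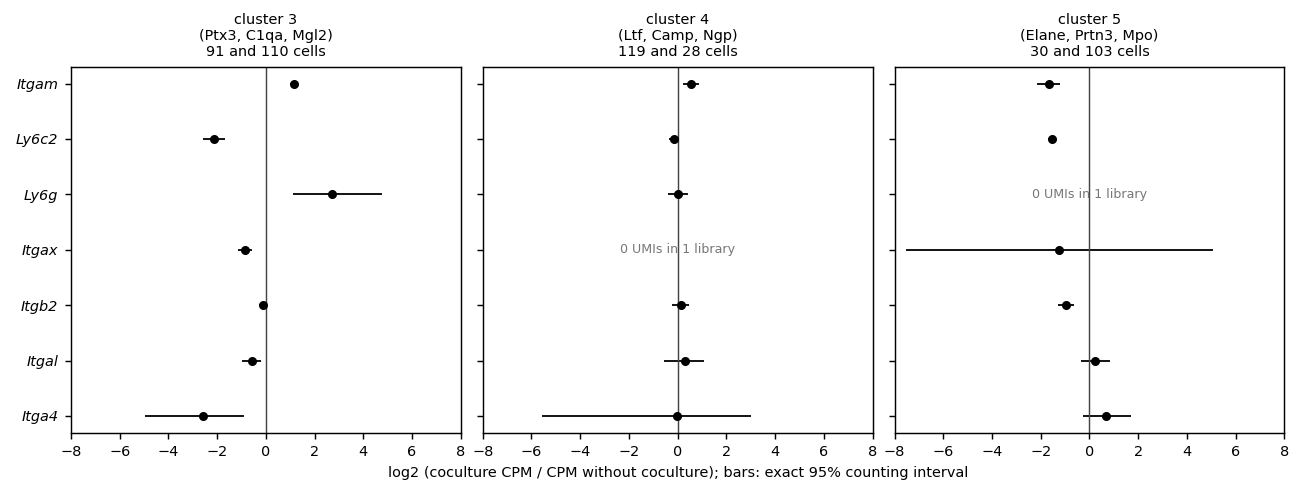
Log2 ratio of coculture CPM to CPM of the other library (horizontal axis) for the 7 measured genes (rows) within the 3 clusters that hold at least 20 cells of each library, with exact 95% counting intervals. Itgam lies to the right of 0 in clusters 3 and 4 and to the left in cluster 5, and Itgb2 lies near 0 in clusters 3 and 4.

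Partner and other integrin chains lay in different classes. Itgb1, partner of Itga4 and of many matrix receptors, was even between the libraries (119 and 112 CPM, log2 ratio -0.09) and was highest in mature dendritic cell-like cells (234 CPM), the class that led for Itga4. Itgb7, the other partner of Itga4, was higher in the coculture (16.6 and 58.5 CPM, 1.82), and 63.0% of its coculture UMIs lay in basophil or mast cell-like cells (307 CPM), which had 11.2 CPM of Itga4. In T or NK cell-like cells both were present, with 136 CPM of Itgb7 (27 UMIs). Itga2b and Itgb3, the 2 chains of the platelet fibrinogen receptor, went from 21 to 5921 UMIs (log2 ratio 8.07) and from 11 to 1731 UMIs (7.23). Megakaryocyte or platelet-like cells held 70.9% and 88.97% of these, at 1402 and 514 CPM. Itga2b was also found without Itgb3 in eosinophil-like cells (109 against 0.350 CPM) and, with 26.7 CPM of Itgb3, in basophil or mast cell-like cells (193 CPM). Of the 21 other integrin chains 9 were measured, 4 higher and 2 lower, with a median log2 ratio of 0.28 (over all measured genes, 12.7% higher, 11.7% lower and a median of 0.03). The lower ones were Itgb5 (-1.42) and Itga5 (-1.0), chains of vitronectin and fibronectin receptors.

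**Figure D5:**
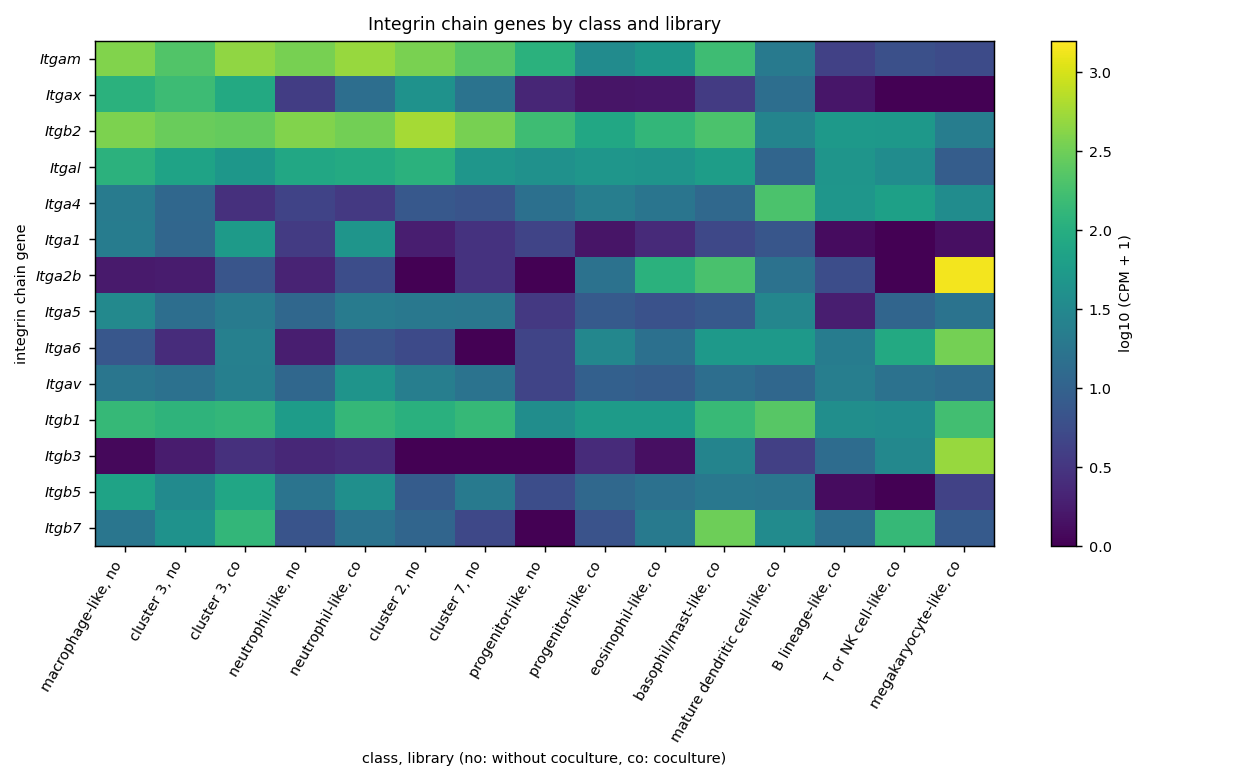
Log10 of CPM + 1 (colour) of the 5 integrin genes of the set and the 9 other measured chains (rows) in the 15 sets of cells (columns; no, without coculture; co, coculture). Itgam and Itgb2 are bright in the myeloid columns, Itga4 in the mature dendritic cell-like column, Itgb7 in the basophil or mast cell-like column and Itga2b with Itgb3 in the megakaryocyte column.

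Ligands of these integrins were measured for 7 of 11 genes, 3 higher and 1 lower in the coculture (median log2 ratio 0.05), where 12.7% of all measured genes were higher and 11.7% lower. Vcam1, the main ligand of VLA-4, went from 3.89 to 27.9 CPM (2.84) and Icam2, a ligand of LFA-1, from 11.5 to 33.7 CPM (1.55). Icam1, a ligand of LFA-1 and Mac-1, went from 44.5 to 25.5 CPM (-0.80), within 2-fold, and Spp1, the matrix protein osteopontin, from 1150 to 563.5 CPM (-1.03). Of 18 measured genes of the machinery that switches integrins to their binding state, 13 stayed within 2-fold, 3 were higher and 2 lower (median -0.20). These counts stand beside the same 12.7% higher and 11.7% lower, and nothing particular to the list is read from them. The lower were Parvb (16.9 and 3.37 CPM, -2.32) and Skap2 (158 and 76.0 CPM, -1.06), which encode an adaptor of the integrin-linked kinase and an adaptor of myeloid integrin activation. The highest were Skap1, its T cell relative (2 and 302 UMIs, 7.17), and Cytip (52.2 and 172 CPM, 1.72), a regulator of LFA-1 adhesion in lymphocytes and dendritic cells.

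Of 13 other genes of the Ly6 and uPAR family, 6 were measured, 2 higher and 3 lower (median -0.36). These and the counts that follow stand beside 12.7% higher and 11.7% lower among all measured genes, and nothing particular to a list is read from them. Ly6d, a B lineage gene, went from 13 to 6893 UMIs (8.98) and Ly6a, which encodes Sca-1, from 17.5 to 149 CPM (3.09). Plaur, the urokinase receptor, went from 389 to 76.9 CPM (-2.34) and Cd177, a neutrophil surface gene, from 132 to 39.6 CPM (-1.74). Of 10 other leukocyte adhesion receptors 9 were measured, 5 of them lower and 1 higher (median -1.20). Sirpa, the myeloid receptor for CD47, went from 468 to 64.4 CPM (-2.86), the hyaluronan receptor gene Cd44 from 276 to 65.6 CPM (-2.07), Spn, which encodes CD43, from 49.5 to 95.2 CPM (0.94) and Pecam1 from 9.21 to 123 CPM (3.73). All 10 transcription factors known to act on myeloid genes were measured, 5 higher and 3 lower (median 0.39). Klf4, a monocyte and macrophage factor, went from 127 to 6.29 CPM (-4.33) and Cebpb from 1432 to 588 CPM (-1.29), while the granulocyte factor Cebpe went from 74.8 to 447 CPM (2.58) and the progenitor factor Myb from 4.03 to 67.6 CPM (4.07).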

How the data were processed

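Single-cell 3' libraries of the 2 sorted populations were compared as 1 sample each. The deposited values are whole-number UMI counts per gene and barcode, not normalized, made by the authors with Cell Ranger and the mouse build mm10 (submitters' processing notes; software 3.1.0, per the file headers). How empty droplets were removed is not given in the sources used here. Barcodes with fewer than 500 genes or over 10% mitochondrial UMIs were left out (363 and 129), and 2 of the kept barcodes occur in both libraries. Positions and transcripts came from GENCODE M21 and promoter windows from RefSeq.

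Counts were summed per library, cluster or class and divided by the summed UMIs (CPM). Ratio intervals are exact conditional binomial intervals and share intervals are Clopper-Pearson. A share or level of 0 was read against a floor of 3 UMIs per set of cells. With 1 library per group no test was run. Cells were clustered with scanpy 1.11.5 (2000 variable genes, 30 principal components, 15 neighbours, Leiden resolution 0.8) without the 92 genes of the set and its companion lists, giving 18 clusters, and named from 16 marker sets, with B and plasma cells taken as 1 B lineage. A name needed at least 3 markers at 2-fold or more, and more of its own markers than of any other set among the 10 leading genes. The stromal or endothelial cell-like cluster held 9 cells. Scrublet called 5 of 4822 cells (0.104%), so it did not work here and doublets were not removed. Thinning to 2000 UMIs left out 140 and 265 cells. The calls were tested on simulated counts with known answers.

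The genes and lists were chosen with earlier results of these data known. Named genes are the 8, the 2 highest and 2 lowest measured genes of each list, the partner chains Itgb1, Itgb7, Itga2b and Itgb3, and the 3 genes most alike by Pearson r, of which 1 gene is not reported here. Alternatives were edgeR 4.0.16 TMM and DESeq2 1.42.0 size factors used as scaling only, filters, expression minimums, mean CPM per cell, other clusterings and other thinning depths. A further alternative left out the few cells called by Scrublet.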

Additional observations from a re-analysis of the deposited data

Results flagged for a closer look

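Itgam differed in opposite directions between clusters that hold both libraries. Its log2 ratio of the coculture over the library without coculture was 1.15 in cluster 3 and 0.55 in cluster 4, but -1.68 in cluster 5. With 1 library per group the difference between the clusters was not tested.

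Signal was also present outside the values used. The second identifier named Itgam (ENSMUSG00000108596, Gm49368 in GENCODE M21) spans chromosome 7, 128062683 to 128128160, overlaps Itgam by 55809 bases and ends 1386 bases before Itgax. It gave 72 UMIs without coculture and 25 in the coculture, and these were not added to Itgam. Barcodes left out by the filters held 232 Itgam UMIs and 71 Ly6c2 UMIs without coculture, and 8 Itgam UMIs in the coculture.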

How the results depend on the processing

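The count of 5 lower genes held under 7 of 9 alternatives. Among the 7, leaving out the Scrublet calls removed only 5 cells and could hardly move the count. The count was 4 without the 5% of cells with most UMIs, where Itgal stood at -0.99 on the log2 scale, and 6 when genes with at least 10 UMIs over both libraries were taken, which adds Ly6c1. Itga4 passed 2-fold, making 1 higher gene instead of 0, in the mean of per-cell CPM (log2 ratio 2.13) and with those richest cells left out (1.24). Across the alternatives the log2 ratios ran from -1.52 to -1.23 for Itgam, -2.05 to -1.81 for Ly6c2, -0.85 to -0.67 for Ly6g, -3.50 to -3.04 for Itgax, -1.70 to -1.34 for Itgb2, -1.21 to -0.99 for Itgal and 0.82 to 2.13 for Itga4. Scaling by TMM moved the median log2 ratio of all genes from 0.03 to -0.13 and by DESeq2 size factors to -0.11, with 14.6% and 14.4% of genes lower and 10.5% and 10.7% higher. With at least 10 UMIs, 3824 genes were higher and 1898 lower, and at a minimum of 50 CPM 403 and 513, since these rules change the genes counted.

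Levels in cell classes stayed within their counting intervals in 279 of 322 recalculations. At resolution 0.4 cluster 3 no longer stood apart and the neutrophil-like class grew from 740 to 898 and from 438 to 548 cells. Itgax in that class went from 2.81 to 56.3 CPM without coculture and from 13.2 to 33.0 CPM in the coculture, so that it was lower and no longer higher in the coculture, and Ly6g without coculture from 128 to 76.0 CPM. At resolutions 0.4 and 1.2 the megakaryocyte or platelet-like class held 120 cells instead of 149. Its Itgam level fell from 4.34 to 0.784 CPM and its Itgal level from 7.68 to 1.18 CPM. These levels thus depend on which cells the class takes in, and why cells left it was not tested. Without the 5% of cells with most UMIs, Itgam in eosinophil-like cells was 76.4 instead of 48.8 CPM. In an alternative chosen after seeing the data, 19 basophil or mast cell-like and 11 eosinophil-like cells with at least 1000 CPM of S100a8 and S100a9 were left out: Itgam in the former went from 161 to 144 CPM, Ly6c2 from 43.0 to 30.2 CPM and Ly6g from 42.7 to 47.1 CPM, and Ly6c2 in eosinophil-like cells from 134 to 119 CPM. No paired analysis was possible because each group has 1 library and the labels give no replicate numbers. Depth limits what is seen of Ly6c1 and of any gene in the T or NK cell-like cells, whose median was 1910 UMIs.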

Other observations

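In basophil or mast cell-like cells, the 226 cells with an Itgam UMI had neutrophil marker genes at 9419 CPM in sum (14 of 14 markers summed), against 273 CPM in the 189 cells without one. The basophil and mast cell markers were alike, at 31680 and 32890 CPM. The 62 cells of this class with a Ly6c2 UMI had neutrophil markers at 20780 CPM, against 1655 CPM in the 353 without one, at median depths of 8650 and 6147 UMIs. These sums pool cells and can rest on a few of them, and their spread was not examined. Leaving out the 19 cells of the class with at least 1000 CPM of S100a8 and S100a9 left 454 of its 561 Itgam UMIs. It left 95 of its 150 Ly6c2 UMIs. In eosinophil-like cells the neutrophil markers summed to 2981 CPM in 243 cells with and 1487 CPM in 239 cells without an Itgam UMI. The eosinophil markers there stood at 84190 and 70810 CPM. The neutrophil markers include Cebpe, which was highest in eosinophil-like cells. It had 1252 CPM there, where all 14 markers summed to 2300 CPM, so this sum is not specific to neutrophils in that class. Of 8 B lineage-like cells with an Itgam UMI, the neutrophil markers summed to 836 CPM, against 68.1 CPM in the other 902. Droplets that held more than 1 cell were not removed, and their part in these values was not tested.

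The chains of 1 integrin were not always detected in 1 cell. In cells thinned to 2000 UMIs, Itga4 and Itgb1 were seen together in 12.04% of 274 mature dendritic cell-like cells, and Itga4 and Itgb7 in 1.46%. Itgax and Itgb2 were seen together in 11.2% of 563 macrophage-like cells and in none of 404 basophil or mast cell-like, 464 eosinophil-like or 786 B lineage-like cells. In the latter classes only 7, 5 and 2 cells had an Itgax UMI unthinned. Their lack of joint detection therefore follows from Itgax alone and tells nothing about pairing.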
